A study of Homo sapiens with 6 samples.

Results

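The genes described here are the enzymes that write, remove and fuel the removal of DNA methylation, together with WT1, a transcription factor that brings TET enzymes to DNA. They were the DNA methyltransferases DNMT1, DNMT3A and DNMT3B, the dioxygenases TET1, TET2 and TET3, the isocitrate dehydrogenases IDH1 and IDH2, and WT1. They were chosen by name, and 8 of the 9 had a row among the 24878 genes of the deposited table. TET1 was not analysed here. All 8 passed the filter on low counts. The cells were MOLM-13, a human acute myeloid leukaemia line of type AML-M5. The study has 2 libraries labelled CaMK2D-KO after 3 days of dox induction, 2 after 5 days, and 2 from control cells with no dox induction. CaMK2D-KO stands for an inducible knockout vector against the calcium/calmodulin-dependent kinase CaMK2D, and doxycycline (dox) switches it on. The sample descriptions do not say whether the controls carry the vector. Effects of the vector, of doxycycline and of the knockout therefore cannot be told apart. Whether the 2 libraries of each group are separate cultures is not given in the labels, and the p-values then reflect the spread between these libraries alone, which may be technical.

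DNA methylation is the addition of a methyl group to cytosine, mostly where a guanine follows (CpG). DNMT1 copies existing methylation onto the new strand after replication, with the help of UHRF1, and DNMT3A and DNMT3B place new methylation. TET enzymes oxidise methylcytosine, which starts its removal, and they need 2-oxoglutarate, a product of the IDH1 and IDH2 reactions. DNMT3A, TET2, IDH1, IDH2 and WT1 are all recurrently mutated in acute myeloid leukaemia. The files hold RNA levels only, so neither DNA methylation nor any mutation was measured.

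Total counts ranged from 15456770 to 21081298 per library. Levels are given as CPM (counts scaled to library total with edgeR's TMM factors), and levels of different genes are compared as the authors' FPKM, which are also per length. The targeted gene CAMK2D stood at 14.7 and 15.6 CPM at KO day 3 and at 28.98 and 28.1 CPM at KO day 5, against 23.0 and 14.5 CPM in control, with edgeR adjusted p of 0.437 and 0.118. The day 3 libraries overlapped with control and both day 5 libraries were above both controls (1.53-fold), though neither difference passed. Myeloid identity genes (10 of 10 with a row) summed to 1273 to 1420 CPM at KO day 3 and 1318 to 1663 CPM at KO day 5, against 3025 to 3743 CPM in control. By edgeR 5 of the 10 fell at both days (MPO, FLT3, SPI1, ITGAM and CD4). MPO, a granule enzyme of immature myeloid cells, had 16.5 and 27.7 CPM at KO day 3 and 6.85 and 15.6 CPM at KO day 5, against 662 and 1220.0 CPM in control. The list did not move as one: CEBPA, a myeloid transcription factor, rose at day 5 (log2 fold change 0.48, edgeR adjusted p = 0.0287), and PTPRC overlapped with control at both days. CD14, a monocyte marker, stayed under 2 FPKM in every library. Of the marker lists of other cells, the epithelial sum (2 of 6 with a row) overlapped with control at both days. The B lymphoid sum (3 of 4) was 20.4 to 34.6 CPM at KO day 3 and 21.7 to 22.4 CPM at KO day 5, against 26.7 to 35.6 CPM in control, mostly PAX5, with CD79A under 2 CPM in each library. The T and NK sum (2 of 5) was 101 to 109 CPM at KO day 3 and 126 to 131 CPM at KO day 5, against 125 to 129 CPM in control, mostly NCAM1. The erythroid list had a row for 1 of 6 genes, under 1 CPM in each library. The stromal and endothelial sum (5 of 7) was 42.0 to 45.1 CPM at KO day 3 and 40.9 to 43.3 CPM at KO day 5, against 134 to 218 CPM in control, nearly all of it PECAM1, which myeloid cells also make. COL1A1 and DCN, which define stromal cells, had at most 4 counts in a library. The part of these marker differences in the results on the 8 genes was not tested.

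Relative to control, 3 of the 8 genes fell at both days, namely DNMT1, DNMT3B and WT1, and 2 rose at day 5, namely DNMT3A and IDH1. Calls are edgeR quasi-likelihood tests with Benjamini-Hochberg adjusted p under 0.05 over 14601 genes. At KO day 3 the counts were 3 lower and 0 higher, where 11.7% of all tested genes were called, 5.99% lower and 5.72% higher. By unadjusted p under 0.05, 1 of the 8 was higher, and DESeq2 and limma on log2(FPKM + 1) also called 0 higher. At KO day 5 the counts were 3 lower and 2 higher, where 14.5% of all tested genes were called, 7.05% lower and 7.44% higher. TET2, TET3 and IDH2 passed at neither day. Both KO libraries lay below both controls for 5 of the 8 genes and above both for 2, at each day. The 5 were not all the same genes, as TET2 was among them at day 3 only and TET3 at day 5 only. Over all genes tested that separation was common, at 30.1% below and 30.3% above at day 3, and 28.4% below and 29.6% above at day 5. Both days are set against the same controls. In these bulk libraries, fewer cells that make a gene's RNA and less of it in each cell cannot be told apart.

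**Figure D1:**
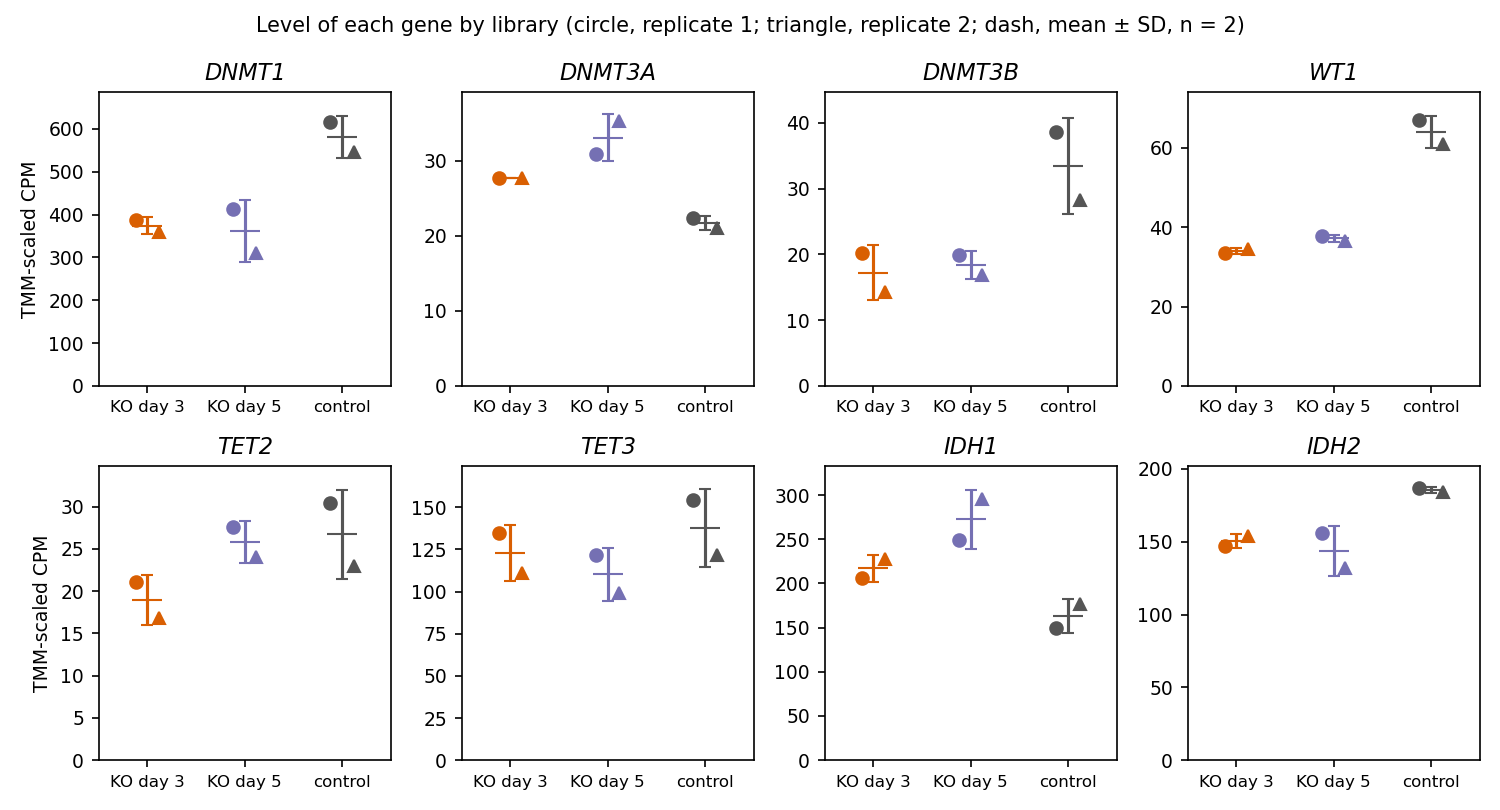
Level of each of the 8 genes by library, in TMM-scaled CPM on linear axes from 0, with the mean and SD of 2 libraries per group. DNMT1, DNMT3B and WT1 sit lower at both KO days than in control, and IDH1 and DNMT3A sit higher.

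DNMT1, the maintenance methyltransferase (ENSG00000130816, chromosome 19, 10133345 to 10231286, minus strand, GRCh38), had 387 and 359 CPM at KO day 3 and 412 and 309.6 CPM at KO day 5, against 616 and 546.5 CPM in control. Every KO library was below both controls. DNMT1 averaged 373 ± 19.9 CPM at KO day 3 and 361 ± 72.4 CPM at KO day 5, and 581 ± 49.1 CPM in control (SD, n = 2 each). Relative to control it differed on the log2 scale by -0.64 (edgeR adjusted p = 0.0377, SE 0.157) at KO day 3 and -0.69 (edgeR adjusted p = 0.0263, SE 0.157) at KO day 5. The day 3 call did not hold without control replicate 1, without KO day 3 replicate 1 or KO day 3 replicate 2 (adjusted p of 0.115, 0.163 and 0.245 by edgeR). The day 5 call did not hold without control replicate 1 or without KO day 5 replicate 2 (adjusted p of 0.0723 and 0.126 by edgeR). At 32.8 to 63.3 FPKM, DNMT1 was the most abundant of the 3 methyltransferases in each library and made up 82.8% to 87.7% of their summed FPKM. DNMT1 shares 83 of its 9796 exonic bases with S1PR2, which had at most 156 counts in a library.

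DNMT3B, a de novo methyltransferase (ENSG00000088305, chromosome 20, 32762385 to 32809356, plus strand), had 20.2 and 14.2 CPM at KO day 3 and 19.9 and 16.9 CPM at KO day 5, against 38.6 and 28.2 CPM in control. The KO libraries did not overlap with control. On the log2 scale the difference from control was -0.96 (edgeR adjusted p = 0.0389, SE 0.238) at KO day 3 and -0.86 (edgeR adjusted p = 0.0477, SE 0.237) at KO day 5. Both calls are close to the threshold. Of the 6 fits that leave out 1 library, only the one without control replicate 2 kept the day 3 call, and the others gave edgeR adjusted p of 0.0503 to 0.244. The day 5 call did not hold without control replicate 1, without KO day 3 replicate 1, KO day 5 replicate 1 or KO day 5 replicate 2 (adjusted p of 0.186, 0.0503, 0.101 and 0.198 by edgeR).

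DNMT3A, the other de novo enzyme (ENSG00000119772, chromosome 2, 25227855 to 25342590, minus strand), ran the opposite way. It had 27.7 and 27.7 CPM at KO day 3 and 30.8 and 35.2 CPM at KO day 5, against 22.3 and 21.0 CPM in control. Each KO library was above both controls. The log2 fold change was 0.36 (edgeR adjusted p = 0.182, SE 0.159) at KO day 3, which did not pass, and 0.61 (edgeR adjusted p = 0.039, SE 0.159) at KO day 5. The day 5 call was lost in each of the 6 fits that leave out 1 library, at edgeR adjusted p of 0.0805 (without control replicate 1), 0.125 (without control replicate 2), 0.0996 and 0.0983 (without KO day 3 replicate 1 or 2), and 0.0853 and 0.186 (without KO day 5 replicate 1 or 2). The FPKM of DNMT3B was 1.89 and 1.33 times that of DNMT3A at KO day 3 and 1.68 and 1.25 times at KO day 5, against 4.5 and 3.49 times in control. This ratio within a library does not depend on how libraries are scaled to each other, and its KO and control values do not overlap. Its size does depend on the lengths used, 4630 exonic bases for DNMT3B and 12020 for DNMT3A. By read counts DNMT3A was above DNMT3B in each KO library and below it in each control. No test was run on the ratio.

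**Figure D2:**
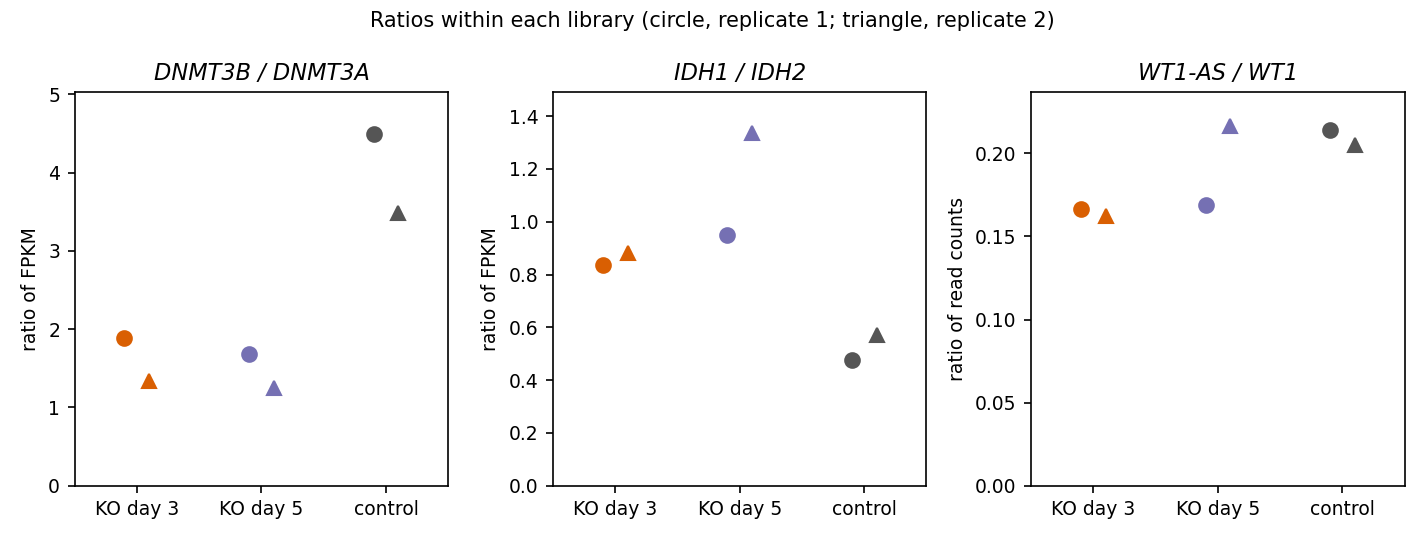
Ratios of 2 genes within each library, on linear axes from 0: DNMT3B over DNMT3A and IDH1 over IDH2 as FPKM, and WT1-AS over WT1 as read counts. The first is 1.25 to 1.89 in the KO libraries and 3.49 to 4.5 in control, the second is 0.836 to 1.34 in the KO libraries and 0.476 to 0.572 in control, and the third overlaps with control at day 5.

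RefSeq promoter windows (GRCh38.p14, 250 bases before to 50 after an annotated start) were found for all 8 genes. Those of DNMT1, DNMT3B, IDH1 and IDH2 all lie inside the gene span, so the upstream end of that span was not searched. For DNMT3B the only start is 32779852, where the gene begins at 32762385. The DNMT1 window, chr19:10194904-10195203 on the minus strand, is shown because it holds a match to TTTCGCGC, a sequence of the kind bound by the E2F factors that drive S-phase genes. The match, GCGCGAAA on the printed strand, is in capitals, close to the annotated start. Both strands were searched, and 0.515% of 35116 windows of the same length hold this motif. WT1/EGR-type, GC box, E-box and ETS-type motifs were searched as well. The DNMT1 window also holds 2 matches to the WT1/EGR-type GCGTGGGNG, which 2.8% of all windows hold, and a TET3 window holds 1. Among the windows of the other 7 genes the E2F-type motif was not found, which says nothing of promoters outside these windows. UHRF1, described below, has the E2F-type motif in 1 of 3 windows, chr19:4909894-4910193 on the plus strand. A match describes the letters of these windows and is not evidence of binding.
DNMT1: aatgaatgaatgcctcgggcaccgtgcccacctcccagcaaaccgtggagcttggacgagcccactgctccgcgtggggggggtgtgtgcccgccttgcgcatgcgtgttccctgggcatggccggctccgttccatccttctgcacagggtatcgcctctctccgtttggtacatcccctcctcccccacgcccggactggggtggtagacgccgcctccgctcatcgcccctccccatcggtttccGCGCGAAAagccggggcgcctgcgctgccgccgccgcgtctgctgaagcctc
UHRF1: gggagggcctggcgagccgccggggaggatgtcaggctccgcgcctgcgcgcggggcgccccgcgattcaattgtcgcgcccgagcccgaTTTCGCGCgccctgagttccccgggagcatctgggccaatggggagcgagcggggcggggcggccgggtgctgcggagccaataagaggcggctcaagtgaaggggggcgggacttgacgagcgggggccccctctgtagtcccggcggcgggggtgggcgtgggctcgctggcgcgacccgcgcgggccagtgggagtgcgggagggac

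TET2 and TET3, which oxidise methylcytosine, did not pass the threshold in any comparison in the edgeR fit of the 3 groups without a replicate term. TET3 (ENSG00000187605, chromosome 2, 73986404 to 74108176, plus strand) had 134.5 and 111 CPM at KO day 3 and 121 and 98.9 CPM at KO day 5, against 154 and 121.5 CPM in control. Its KO day 3 values overlapped with control, and at KO day 5 the higher value was less than 1 CPM below the lower control. The log2 fold change of TET3 was -0.17 (edgeR adjusted p = 0.565, SE 0.172) at KO day 3 and -0.32 (edgeR adjusted p = 0.244, SE 0.172) at KO day 5.

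TET2 (ENSG00000168769, chromosome 4, 105145875 to 105279816, plus strand) had 21.1 and 16.8 CPM at KO day 3 and 27.6 and 24.0 CPM at KO day 5, against 30.5 and 23.0 CPM in control. Both day 3 libraries were below both controls, and the day 5 libraries lay within the range of the controls. Relative to control it differed on the log2 scale by -0.49 (edgeR adjusted p = 0.16, SE 0.208) at KO day 3 and -0.05 (edgeR adjusted p = 0.901, SE 0.207) at KO day 5. Between the days TET2 was apart, with a log2 fold change of 0.45 (edgeR adjusted p = 0.355, SE 0.208) for KO day 5 over KO day 3, which did not pass. TET3 was the more abundant per length, at 8.58 and 8.86 times the FPKM of TET2 at KO day 3 and 5.91 and 5.52 times at KO day 5, against 6.8 and 7.09 times in control.

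IDH1, the cytosolic and peroxisomal isocitrate dehydrogenase (ENSG00000138413, chromosome 2, 208236227 to 208266074, minus strand), rose at day 5. It had 206 and 228 CPM at KO day 3 and 249 and 296 CPM at KO day 5, against 149 and 176.5 CPM in control. All KO libraries were above both controls, and both day 5 libraries were above both day 3 libraries. On the log2 scale the difference from control was 0.41 (edgeR adjusted p = 0.0987, SE 0.142) at KO day 3 and 0.74 (edgeR adjusted p = 0.0148, SE 0.143) at KO day 5. The day 5 call was gone when KO day 5 replicate 2 was left out (edgeR adjusted p = 0.0822), and without control replicate 2 the day 3 value passed (log2 fold change 0.55, edgeR adjusted p = 0.045). IDH1 shares 94 of its 4721 exonic bases with the antisense gene IDH1-AS1, which had at most 10 counts in a library.

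IDH2, the mitochondrial enzyme (ENSG00000182054, chromosome 15, 90083045 to 90102504, minus strand), had 147 and 154 CPM at KO day 3 and 156 and 132 CPM at KO day 5, against 187 and 184 CPM in control. Each KO library was below both controls, but the differences did not pass. The log2 fold change was -0.30 (edgeR adjusted p = 0.156, SE 0.125) at KO day 3 and -0.36 (edgeR adjusted p = 0.0898, SE 0.125) at KO day 5. The FPKM of IDH1 was 0.836 and 0.883 times that of IDH2 at KO day 3 and 0.951 and 1.34 times at KO day 5, against 0.476 and 0.572 times in control. Their FPKM added to 94.5 and 99.1 at KO day 3 and 109.8 and 114 at KO day 5, against 98.6 and 102 in control.

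WT1, a zinc finger transcription factor of kidney and gonad development that is highly expressed in many leukaemias (ENSG00000184937, chromosome 11, 32387775 to 32435630, minus strand), had the smallest adjusted p of the 8 genes at both days. It had 33.5 and 34.6 CPM at KO day 3 and 37.9 and 36.5 CPM at KO day 5, against 66.9 and 61.1 CPM in control. The KO libraries lay close together and far below both controls. WT1 averaged 34.0 ± 0.785 CPM at KO day 3 and 37.2 ± 0.932 CPM at KO day 5, and 64.0 ± 4.15 CPM in control (SD, n = 2 each). Relative to control it differed on the log2 scale by -0.91 (edgeR adjusted p = 0.00764, SE 0.136) at KO day 3, which is 0.532 times the control level, and -0.78 (edgeR adjusted p = 0.0103, SE 0.136), or 0.581 times, at KO day 5. The day 3 call was lost without KO day 3 replicate 1 or 2 (adjusted p of 0.0757 and 0.0707 by edgeR) and the day 5 call without KO day 5 replicate 2 (edgeR adjusted p = 0.0634).

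WT1-AS, a long noncoding RNA read from the opposite strand across the WT1 start (ENSG00000183242, chromosome 11, 32435518 to 32458769, plus strand), had 5.58 and 5.61 CPM at KO day 3 and 6.4 and 7.92 CPM at KO day 5, against 14.3 and 12.5 CPM in control. WT1-AS fell as well, to 0.417 times the control level at KO day 3 (edgeR adjusted p = 0.0201) and by 0.90 on the log2 scale (edgeR adjusted p = 0.0478, SE 0.251) at KO day 5. The WT1-AS call at day 3 did not hold without control replicate 1 or without KO day 3 replicate 1 or 2 (adjusted p of 0.0796, 0.125 and 0.129 by edgeR), and at day 5 in each of the 6 fits that leave out 1 library (edgeR adjusted p = 0.0796 to 0.172). The genes share 113 exonic bases, and no label says that strand was kept, so their reads there cannot be told apart. WT1-AS counts were 0.167 and 0.162 times the WT1 counts at KO day 3 and 0.169 and 0.217 times at KO day 5, against 0.214 and 0.205 times in control.

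The WT1 window around the first listed RefSeq start, chr11:32435490-32435789 on the minus strand, is shown because the annotated start of WT1-AS lies inside it. The IDH1 window chr2:208255022-208255321, also on the minus strand, is shown beside it as that of a gene that rose. Capitals mark CpG, of which the WT1 window has 21 and the IDH1 window 20, where the median of all windows is 14. Other windows of the called genes differ widely, from 3 CpG in that of DNMT3B to 46 in one of 6 of DNMT3A. The DNMT3B and IDH1 windows lie inside the gene span, so their counts do not describe its upstream end. The other WT1 windows have 4 to 20 CpG, and the other IDH1 window has 17. No relation of CpG number to direction is therefore read from the WT1 and IDH1 pair.
WT1: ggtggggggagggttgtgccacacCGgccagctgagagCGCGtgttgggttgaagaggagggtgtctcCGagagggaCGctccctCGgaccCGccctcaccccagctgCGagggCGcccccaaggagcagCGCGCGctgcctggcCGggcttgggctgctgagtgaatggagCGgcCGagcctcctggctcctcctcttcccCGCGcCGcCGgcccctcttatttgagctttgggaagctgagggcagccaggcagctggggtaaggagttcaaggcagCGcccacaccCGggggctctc
IDH1: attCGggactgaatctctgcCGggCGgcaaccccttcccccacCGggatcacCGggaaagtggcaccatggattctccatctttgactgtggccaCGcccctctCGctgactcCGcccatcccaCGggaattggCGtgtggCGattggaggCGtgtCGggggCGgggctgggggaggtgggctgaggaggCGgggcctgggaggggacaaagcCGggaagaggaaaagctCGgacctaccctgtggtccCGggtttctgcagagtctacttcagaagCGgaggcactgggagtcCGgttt

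**Figure D3:**
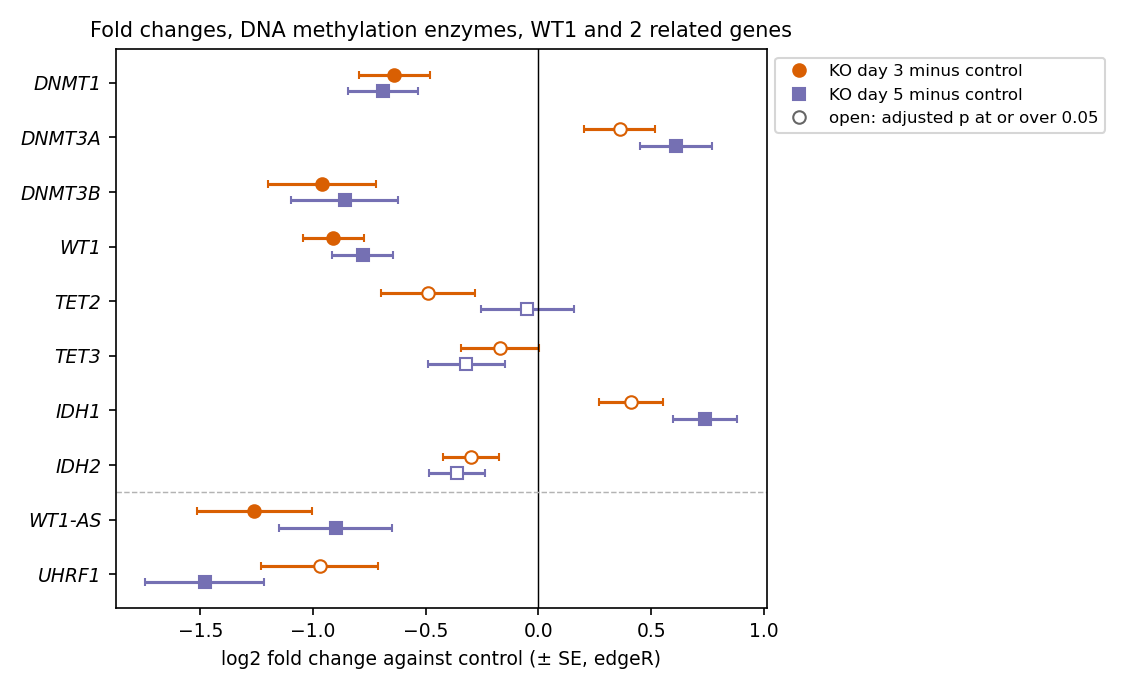
Log2 fold change against control with its SE (edgeR) for the 8 genes and, below the dashed line, WT1-AS and UHRF1, at KO day 3 (circles) and KO day 5 (squares), filled where the adjusted p is under 0.05. WT1, DNMT1 and DNMT3B are filled and negative at both days, and DNMT3A and IDH1 are filled and positive at day 5.

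Between the days none of the 8 genes passed the threshold with edgeR, where 0.0274% of all tested genes did. DESeq2 and limma on log2(FPKM + 1) also called 0, and by unadjusted p under 0.05 edgeR had 1, IDH1 (log2 fold change 0.33 for KO day 5 over KO day 3, SE 0.142, edgeR adjusted p = 0.33). Both day 5 libraries lay above both day 3 libraries for 4 of the 8 genes (DNMT3A, TET2, WT1 and IDH1), and below for 0, where 25.5% of all tested genes were above and 23.8% below.

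In FPKM the order of the genes at KO day 3 was IDH2 (52.0), IDH1 (44.7), DNMT1 (37.1), TET3 (9.75), WT1 (8.05), DNMT3B (3.62), DNMT3A (2.25) and TET2 (1.12), as means of 2 libraries. At KO day 5 IDH1 (59.3) came first, but its libraries overlapped with those of IDH2 (52.4), and WT1 (9.28) overlapped with TET3 (9.2). In control the order was IDH2 (65.7), DNMT1 (59.3), IDH1 (34.4), WT1 (15.5), TET3 (11.2), DNMT3B (7.22), DNMT3A (1.8) and TET2 (1.62), where only DNMT3A and TET2 overlapped among neighbours. WT1 FPKM was above that of 67.6% of the tested genes at KO day 3 and 69.2% at KO day 5, against 80.9% in control. DNMT3B FPKM was above that of 49.6% at KO day 3 and 50.3% at KO day 5, against 64.3% in control.

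DNMT1, DNMT3B, TET2 and TET3 were higher in the library numbered 1 than in the one numbered 2 in all 3 groups, and IDH1 was lower in it in all 3. The part of this difference in the results was not tested beyond the fit with the replicate number as a block, whose values stand with the processing alternatives.

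Other genes of DNA methylation were described with lists of the pathway. Set beside these lists, edgeR called 11.7% of all tested genes at KO day 3 and 14.5% at KO day 5. At KO day 3 edgeR called 0 of 9 tested maintenance and accessory factors (1 lower by unadjusted p under 0.05, 1 lower with DESeq2, 0 with limma), with a median log2 fold change of 0.04, where that of all tested genes was -0.00. Of these 9, 1 fell at KO day 5 and 0 rose, with a median log2 fold change of -0.09, where the median of all tested genes was 0.01. None rose by unadjusted p under 0.05, DESeq2 or limma either. The gene that fell was UHRF1, which guides DNMT1 to newly replicated DNA. UHRF1 had 206.5 and 184 CPM at KO day 3 and 167 and 107 CPM at KO day 5, against 305.5 and 459 CPM in control. All KO libraries were below both controls, which themselves differed widely. Its log2 fold change was -0.97 (edgeR adjusted p = 0.0596, SE 0.26) at KO day 3 and -1.48 (edgeR adjusted p = 0.016, SE 0.264) at KO day 5. The day 5 call did not hold without control replicate 2 or without KO day 5 replicate 2 (adjusted p of 0.0521 and 0.0517 by edgeR). The day 3 value passed when only the 4 libraries compared were fitted (edgeR adjusted p = 0.0394) and without KO day 5 replicate 1 or 2 (adjusted p of 0.0318 and 0.0325 by edgeR).

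Many S-phase and replication genes are known to vary with DNMT1 and UHRF1 through the cell cycle. Of a list of 18, 1 fell at KO day 3 and 2 at KO day 5 by edgeR, where 5.99% and 7.05% of all tested genes fell. Lower counts were 4 and 6 by unadjusted p under 0.05, 1 and 5 with DESeq2 and 0 and 1 with limma. None of the 18 rose at either day by any of these. Their median log2 fold change was -0.17 at KO day 3 and -0.51 at KO day 5. The list includes MKI67 and TOP2A, which are not specific to S phase. Their log2 fold changes were -1.19 and -0.59 at day 3 and -0.44 and 0.32 at day 5, and none passed. At day 3 both are among the 4 genes lower by unadjusted p under 0.05 (edgeR p of 0.0423 and 0.043). CDT1, which licenses replication origins, had 117 and 85.4 CPM at KO day 3 and 94.2 and 75.7 CPM at KO day 5, against 207 and 158 CPM in control (adjusted p of 0.0377 and 0.0148 by edgeR). Its day 3 call did not hold without control replicate 1 or without KO day 3 replicate 1 or 2 (adjusted p of 0.152, 0.0638 and 0.217 by edgeR), and its day 5 call without KO day 5 replicate 2 (edgeR adjusted p = 0.0847). MCM7, a subunit of the replicative helicase, was called at day 5 with all libraries (log2 fold change -0.65, edgeR adjusted p = 0.0371) but in only 1 of the 6 fits that leave out 1 library, the one without KO day 5 replicate 1 (the others gave edgeR adjusted p of 0.0563 to 0.166). The part of cell cycle in the DNMT1 difference was not tested.

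The 10 methyl-CpG readers held 0 calls at KO day 3 and 1, lower, at KO day 5, where 11.7% and 14.5% of all tested genes were called. At KO day 3, 2 were lower by unadjusted p under 0.05, and 0 were called with DESeq2 or limma. At KO day 5 MBD6 fell, at 68.4 and 64.0 CPM against 111 and 104 CPM in control (log2 fold change -0.69, edgeR adjusted p = 0.0109, and 0.0713 without KO day 5 replicate 2). Among 15 partners of TET and base excision repair, which completes the removal of oxidised methylcytosine, 1 rose at KO day 3 and 1 rose and 1 fell at KO day 5, with medians of 0.31 and 0.02. That is no more than the 11.7% and 14.5% of all tested genes called at day 3 and day 5. None fell at day 3, with 1 lower by unadjusted p under 0.05 and 0 by DESeq2 or limma. GADD45A, a stress-induced gene that has been linked to demethylation, had 60.7 and 67.0 CPM at KO day 3 and 79.5 and 111 CPM at KO day 5, against 19.9 and 31.7 CPM in control. It rose by a log2 fold change of 1.30 (edgeR adjusted p = 0.0201) at KO day 3 and 1.88 (edgeR adjusted p = 0.00527) at KO day 5. The day 3 call was lost without KO day 3 replicate 1 or 2 (adjusted p of 0.0695 and 0.0868 by edgeR). UNG, a uracil glycosylase, had 108 and 101 CPM at KO day 3 and 45.9 and 34.8 CPM at KO day 5, against 83.9 and 85.3 CPM in control, and fell at day 5 (log2 fold change -1.07, edgeR adjusted p = 0.00562).

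The list around 2-oxoglutarate, the TET cofactor, had 23 tested genes. Of these, 1 rose and 0 fell at KO day 3 (2 lower by unadjusted p under 0.05, 0 by DESeq2 or limma). At KO day 5, 1 rose and 1 fell. The list medians were 0.09 at day 3 and -0.09 at day 5. The share of all tested genes called was 11.7% at day 3 and 14.5% at day 5. GOT1, the cytosolic aspartate aminotransferase, had 162 and 173 CPM at KO day 3 and 131 and 122 CPM at KO day 5, against 67.7 and 62.8 CPM in control (adjusted p of 0.00135 and 0.00343 by edgeR). CS, citrate synthase, had 197 and 205 CPM at KO day 5, against 293 and 274 CPM in control. It fell by 0.50 on the log2 scale (edgeR adjusted p = 0.0245), and the call did not hold without KO day 3 replicate 1 or 2 (adjusted p of 0.0605 and 0.0596 by edgeR) or KO day 5 replicate 1 or 2 (0.106 and 0.0969).

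The methionine and folate cycle, which renews the methyl donor of the DNMT enzymes, had 1 higher and 1 lower of 19 at KO day 3 and 2 higher and 4 lower at KO day 5, with medians of -0.11 and -0.22. Over all tested genes 5.72% were higher and 5.99% lower at day 3, and 7.44% higher and 7.05% lower at day 5, so the day 3 counts are near the share of all genes. MTR, methionine synthase, had 86.4 and 86.6 CPM at KO day 3 and 83.5 and 57.5 CPM at KO day 5, against 46.4 and 39.0 CPM in control. All 4 KO libraries were above both controls, and MTR rose at both days (log2 fold changes 1.02 and 0.72, adjusted p of 0.0163 and 0.0409 by edgeR). Leaving out KO day 3 replicate 1 or 2 ended the day 3 call of MTR (edgeR adjusted p of 0.0787 and 0.0783). At day 5 MTR kept its call in 1 of the 6 fits that leave out 1 library, the one without KO day 5 replicate 2, and the others gave edgeR adjusted p of 0.0658 to 0.197. AHCYL1 rose and PSPH, which makes serine, fell at day 5 (log2 fold changes 0.70 and -0.73, edgeR adjusted p = 0.0095 and 0.0136). The AHCYL1 call was gone when KO day 5 replicate 2 was left out (edgeR adjusted p = 0.0605) and the PSPH call without KO day 5 replicate 1 (0.0709).

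**Figure D4:**
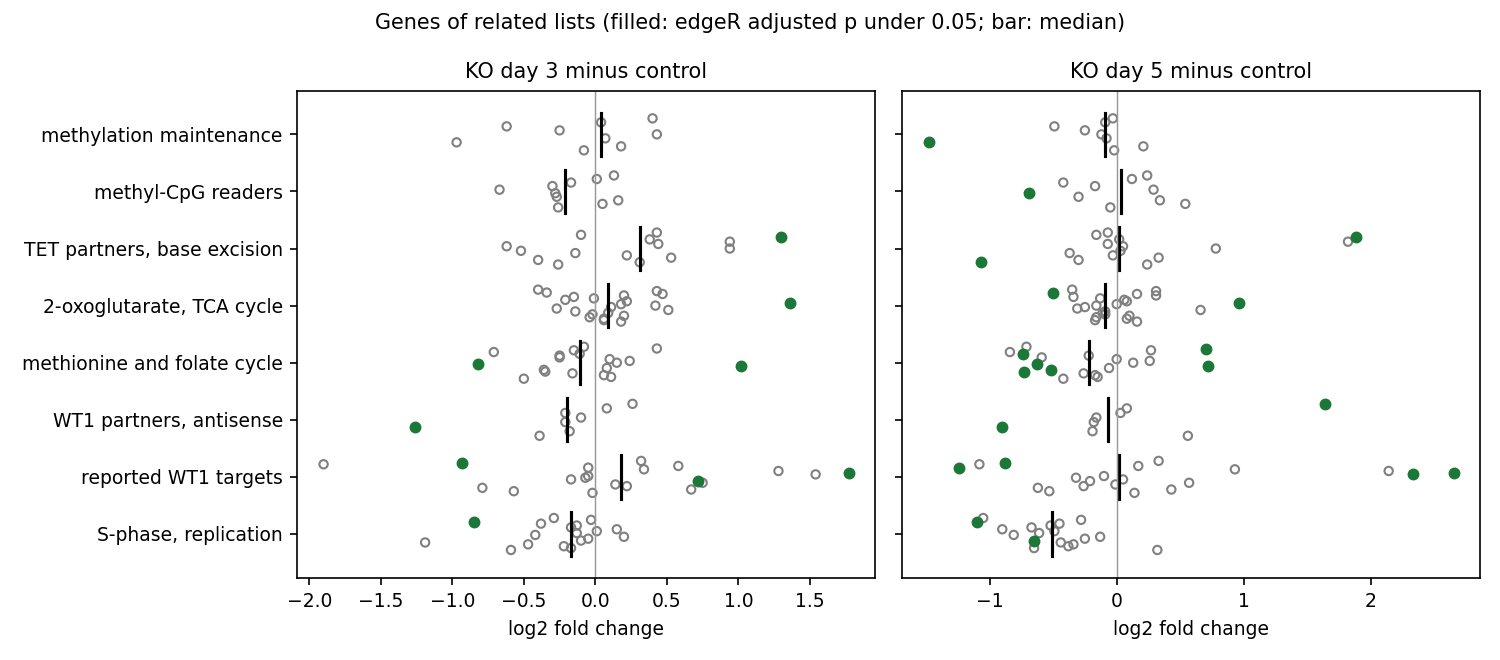
Log2 fold change of each tested gene in 8 lists at KO day 3 (left) and KO day 5 (right), filled where the edgeR adjusted p is under 0.05, with a bar at the median of each list. Most genes are open circles near 0, and the S-phase median is -0.51 at day 5.

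Among 20 reported WT1 targets 2 rose and 1 fell at KO day 3 and 2 rose and 2 fell at KO day 5, with medians of 0.18 and 0.02. These counts are near the 11.7% and 14.5% of all tested genes that were called at day 3 and day 5. BCL2, an inhibitor of apoptosis, had 81.5 and 99.8 CPM at KO day 3 and 97.5 and 90.1 CPM at KO day 5, against 167 and 178 CPM in control. It fell by 0.93 (edgeR adjusted p = 0.00747) and 0.88 (edgeR adjusted p = 0.00707) on the log2 scale. The calls were lost without KO day 3 replicate 1 at day 3 (edgeR adjusted p = 0.0751) and without KO day 5 replicate 2 at day 5 (0.0507). EGR1, an immediate early factor that binds DNA much as WT1 does, had 12.3 and 16.7 CPM at KO day 3 and 16.5 and 36.8 CPM at KO day 5, against 3.34 and 5.08 CPM in control. Its log2 fold changes were 1.77 (edgeR adjusted p = 0.0394) and 2.65 (edgeR adjusted p = 0.0105). The EGR1 call at day 3 did not hold without control replicate 1 or 2 (adjusted p of 0.196 and 0.0804 by edgeR) or KO day 3 replicate 1 or 2 (0.0918 and 0.158), and at day 5 without control replicate 1 (0.0644). MYC, a growth-promoting factor, rose at day 3, with 892 and 1112.0 CPM at KO day 3 and 509.9 and 545 CPM at KO day 5, against 614 and 603 CPM in control (adjusted p of 0.0169 and 0.345 by edgeR). The MYC call was gone when KO day 3 replicate 2 was left out (edgeR adjusted p = 0.15). CCNE1, cyclin E1, had 8.97 and 10.2 CPM at KO day 3 and 5.04 and 3.33 CPM at KO day 5, against 10.3 and 9.44 CPM in control. Its day 5 call (log2 fold change -1.24, edgeR adjusted p = 0.0295) was lost in 5 of the 6 fits that leave out 1 library, with control replicate 1 or 2, KO day 3 replicate 1 or 2 or KO day 5 replicate 2 left out (edgeR adjusted p = 0.0528 to 0.128).

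Of 8 tested WT1 partners, among which WT1-AS is counted, WT1-AS fell at both days and BASP1 rose at KO day 5. At day 3, 0 rose by edgeR, unadjusted p under 0.05, DESeq2 or limma. The list medians were -0.19 and -0.07, and 11.7% and 14.5% of all tested genes were called at day 3 and day 5. BASP1, a corepressor that turns WT1 from an activator into a repressor, had 36.0 and 25.6 CPM at KO day 3 and 82.8 and 78.0 CPM at KO day 5, against 25.1 and 26.5 CPM in control. It differed from control at day 5 by a log2 fold change of 1.64 (edgeR adjusted p = 0.00218, SE 0.184) and at day 3 by 0.26 (edgeR adjusted p = 0.39). Of 22 germline genes that promoter methylation keeps silent in most cells, 6 had a row and 2 passed the count filter. MAEL had 3 and 1 counts at KO day 3 and 0 and 0 at KO day 5, against 14 and 16 in control. MAEL passed the count filter only through its controls, which leaves a fall as the only likely call. Its day 5 call (edgeR adjusted p = 0.042) is therefore not taken as evidence that it fell. The call was also lost in each of the 6 fits that leave out 1 library. PRAME had 0.99 and 0.99 CPM at KO day 3 and 2.15 and 2.95 CPM at KO day 5, against 0.578 and 2.3 CPM in control. Neither MAEL nor PRAME rose by edgeR, by unadjusted p under 0.05, or with DESeq2. The other genes of this list were not tested, so whether they rose cannot be said. Among these, TEX14 had 11 and 5 counts at KO day 5 against 0 and 2 in control. DDX4 had 0 and 0 against 4 and 1, and SYCP3 had 6 and 5 against 6 and 11.

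Genes with a pattern like that of each called gene were looked for among 9692 protein-coding genes at a mean of at least 5 CPM, by Pearson's r of log2 levels over the 6 libraries. The points share their groups and controls, and many genes scored high. For WT1, 662 genes had r over 0.9, led by MT-CO1 (r = 0.999), PKM (0.998) and PLXND1 (0.998). For DNMT1, 506 did, led by ORAI1 (r = 0.999), NCAPH (0.994) and PTPRJ (0.994), and for DNMT3B 450, led by KIFC3 (r = 0.999), HIPK1 (0.998) and CDC42EP4 (0.997). For DNMT3A, 579 did, led by SKIL, KIZ and SMPD1 (r = 0.998 each), and for IDH1 468, led by MAP4K4 (r = 0.997) and FOXD1 (0.995). With 6 points in 3 groups, r describes the likeness of these profiles and nothing more.

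**Figure D5:**
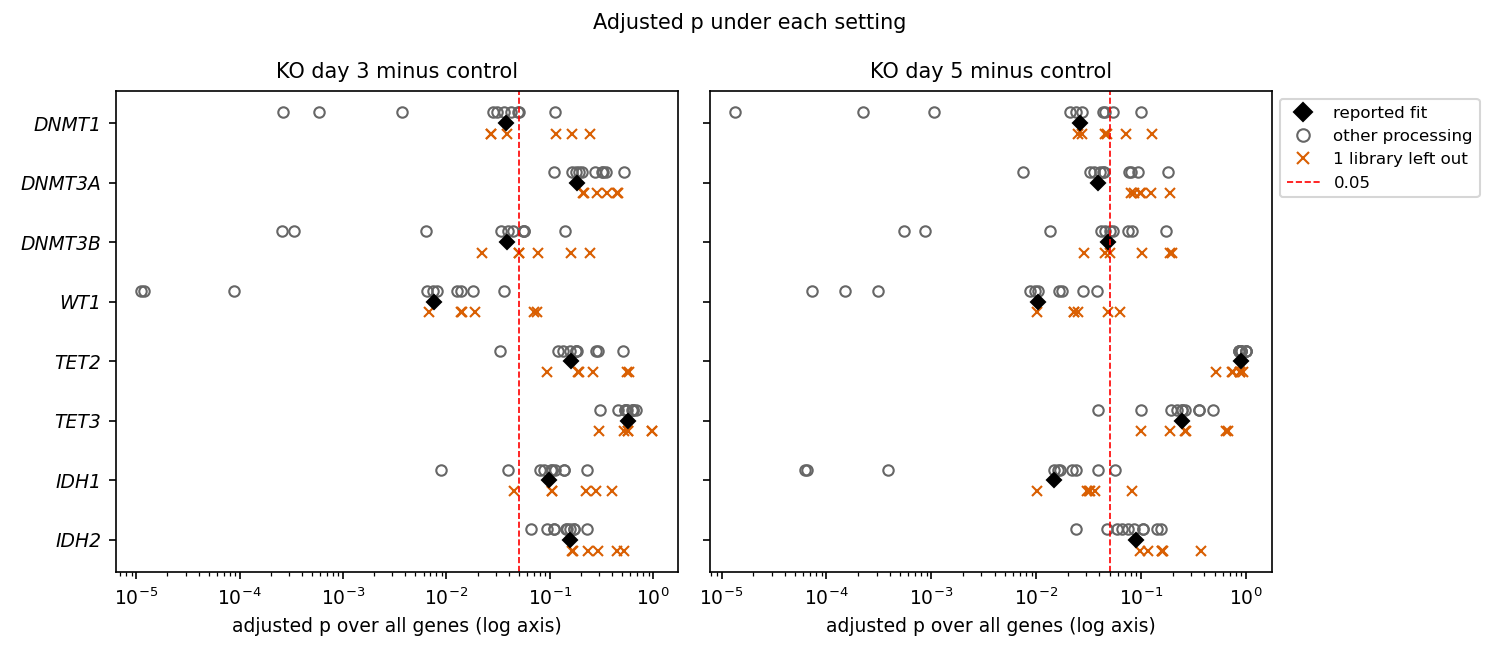
Adjusted p of each gene over all genes tested, on a log axis, under the reported fit (diamonds), the other processing settings (open circles) and each fit that leaves out 1 library (crosses), with the threshold of 0.05 dashed. WT1 lies left of the line in 14 of 16 other settings at day 3 and 15 of 16 at day 5, DNMT3B in 7 and 7, and TET2, TET3 and IDH2 lie mostly to its right.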

How the data were processed

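RNA was sequenced from 6 MOLM-13 libraries, in 3 groups of 2 taken from the labels. Per the file headers, the deposited table gives raw read counts and FPKM for each gene and library. The submitters' processing notes list HISAT2, HTSeq 0.11.2, DESeq2 1.26.0 and GRCh38 without saying what each was used for. The annotation used for counting is not given in the sources used here. The FPKM deposited by the authors equal count over table total and a gene length. GENCODE release 29 gave coordinates and overlaps, and its summed exons equal that length within 0.5 bases in 99.7% of 24878 genes. Reads are not stated to keep strand. A count of 0 (limit 3 counts) allows at most 0.194 CPM, for counting error only.

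Tests on the deposited counts used edgeR 4.0.16 (R 4.3.3). Its filterByExpr (minimum count 10, minimum total 15) kept 14601 genes, TMM factors were 0.962 to 1.04, and a robust quasi-likelihood fit of the 3 groups had 3 residual degrees of freedom. SE was derived as the size of the log2 fold change divided by the root of F. The fit was tested on simulated data. Alternatives used DESeq2 1.42.0, and limma 3.58.1 on log2 FPKM with 1 or 0.1 added. Pairs of libraries in a group differed beyond sampling noise. Named genes were the 8 genes, in each list at most 4 genes, ranked by adjusted p against control (values are given for those past the threshold, and for UHRF1, WT1-AS and PRAME), and the 3 most alike per called gene. Some genes that this rule names are not reported here. ERBB2, MAT2A and PHGDH were called at day 5 but fall outside this rule and are counted only. The members and lists were chosen with earlier results of these data known. Sequences are from RefSeq (GRCh38.p14).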

Additional observations from a re-analysis of the deposited data

How the results depend on the processing

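Alternatives called both more and fewer of the 8 genes. At day 5 the replicate block called 2 higher and 5 lower. Without a low-count filter 1 was higher and 3 lower at day 3, and 2 higher and 4 lower at day 5. In the reported fit the number of the 8 genes called was 3 at KO day 3 and 5 at KO day 5. At day 3 it became 5 with the replicate block, 1 with limma on log2(FPKM + 0.1) and 1 with limma on log2(FPKM + 1) without a filter, and 0 to 4 when 1 library was left out. At day 5 it became 2 with only the 4 libraries compared, 3 with limma on log2(FPKM + 1) or log2(FPKM + 0.1), 1 without its filter, and 0 to 4 when 1 library was left out. Over all genes, the calls at day 3 were 1710, and 2925 without a low-count filter, 4064 with the replicate block, 415 with limma without a filter, and 282 to 1906 leaving out 1 library. At day 5 they were 2117, and 3234, 4418 and 872 under the same settings, 1315 with only the 4 libraries compared, and 723 to 1874 leaving out 1 library. Between the days they were 4, and 599 without a filter, 1117 with the replicate block, 306 with DESeq2, 1 with limma on log2(FPKM + 1), 0 with limma on log2(FPKM + 0.1) or without a filter, and 1 to 15 leaving out 1 library. The cause was not tested.

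Same-numbered libraries also share a letter, A or B, in their sample titles. The labels do not say what the shared number or letter stands for. Same-numbered libraries deviated together from their group means (r = 0.303 to 0.355 over 14601 genes). With the replicate block TET2 (log2 fold change -0.49, adjusted p = 0.0328) and IDH1 (0.42, adjusted p = 0.0088) also passed at day 3, and TET3 (-0.32, adjusted p = 0.0385) and IDH2 (-0.37, adjusted p = 0.0239) at day 5.

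Reversed signs were seen only in values that did not pass. TET3 at day 3 was 0.018 without control replicate 1 (range -0.32 to 0.018). TET2 at day 5 was 0.158 without control replicate 1 and 0.045 without KO day 5 replicate 2 (range -0.267 to 0.158 leaving out 1 library). Between the days DNMT1 was 0.014 and IDH2 0.008 with all 3 limma settings, and 0.138 and 0.049 without KO day 5 replicate 2 (ranges -0.286 to 0.138 and -0.207 to 0.049). DNMT3B was -0.174 without KO day 3 replicate 2 and -0.040 without KO day 5 replicate 1 (range -0.174 to 0.336). WT1 kept its direction in all 16 alternatives at both days and its call in 14 and 15, and DNMT1 kept its direction in all and its call in 11 and 12. A fit with 1 library left in a group takes that library's spread from the other groups. With 2 libraries a group, a p that misses the threshold does not show that TET2, TET3 or IDH2 did not differ.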
